A study of Homo sapiens with 9 samples.

Results

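FOXO1, FOXO3 and FOXO4 are forkhead transcription factors, and SESN1, SESN3, CCNG2, BCL6, PPARGC1A, CITED2 and PDK4 are genes that FOXO factors are known to switch on in one tissue or another. These 10 genes were chosen by name, with earlier results of these data known. Every probe set that the platform annotation gives to one of them, by current symbol or alias, was taken. That gave 41 of 49293 probe sets, for 10 of 18132 genes. A probe set is a group of short oligonucleotides on the array that together read one stretch of messenger RNA. A brightness filter set at a mean of 4.74 on the log2 scale over the 9 arrays was passed by 30 of the 41 probe sets and by 9 of the 10 genes, and SESN3 was the gene that did not pass.

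FOXO factors are active when insulin signalling is low. Insulin activates the kinase AKT, which phosphorylates FOXO proteins, and the phosphorylated proteins are bound by 14-3-3 proteins and leave the nucleus, so that their target genes are read less. In liver cells FOXO1 is known for driving the genes of glucose production in fasting, together with the coactivator encoded by PPARGC1A. Arrays of messenger RNA show neither phosphorylation nor the place of a protein in the cell.

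The arrays were one-colour Affymetrix 3' expression arrays of R-HepG2, described as an insulin-resistant form of the human hepatoma line HepG2. There were 3 arrays of cells given biomineralized insulin (BI, insulin combined with a mineral) for 4 h. A further 3 were of cells given insulin for 4 h, and 3 of cells given medium for 4 h. Both insulin preparations were used at 40 ug/ml, and the cells of all groups were first kept overnight without serum. The cell line tag reads HepG2 for both treated groups and R-HepG2 for medium, while the protocols speak of R-HepG2 throughout, and no group received the mineral component alone. If the tags are right, the comparisons with medium also hold a difference between forms of the line. The sources used here do not say that replicates are separate cultures, so the p-values measure the spread between these arrays, which may be technical.

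Several markers that define liver cells were dim on every array. Albumin (ALB), alpha-fetoprotein (AFP) and APOB averaged 3.40, 2.93 and 2.78 on the log2 scale, below the brightness filter, and 4 of 14 measured hepatocyte markers passed it, namely APOA1, TTR, AHSG and TF. Of the lung epithelium markers 4 of 8 passed it, and of the squamous or basal epithelium markers 2 of 3. Of the fibroblast markers 5 of 6 passed it, and of the blood cell markers 3 of 5. The brightest were NAPSA at 6.46 and NKX2-1 at 6.41 for lung, KRT14 at 5.11, DCN at 8.10 and HBB at 6.64. Others were dim, among them SFTPA1 at 2.80, SCGB1A1 at 3.28, PTPRC at 2.76 and CD14 at 2.99. The filter was passed by 12240 of 18132 genes, so passing it does not mark a cell type. The dim ALB, AFP and APOB go against the labelled cell type, whose name is used below only as the labels give it. The other lists do not name another type. The log2 of the summed hepatocyte markers ran from 8.16 to 8.22 in BI arrays, from 8.10 to 8.19 in insulin arrays and from 8.07 to 8.21 in medium arrays. For the lung list it ran from 8.45 to 8.50 in BI arrays, above 8.27 to 8.32 in insulin arrays and 8.20 to 8.30 in medium arrays. For the fibroblast list it ran from 9.24 to 9.30 in BI arrays, above 9.14 to 9.22 in insulin arrays and 9.10 to 9.20 in medium arrays. Of the 4 tested lung markers NKX2-1 alone was called between BI and medium, where it rose by 0.59 (limma adjusted p = 4.84e-06). Of the 5 tested fibroblast markers DCN rose by 0.32 between BI and medium (limma adjusted p = 0.000107), PDGFRB fell by 0.42 (limma adjusted p = 0.000166) and COL1A1 fell by 0.20 (limma adjusted p = 0.0495), so the summed level moved with DCN and not with the list as a whole. The hepatocyte list overlapped between all groups. For the squamous or basal list insulin arrays (6.31 to 6.33) lay above medium arrays (6.09 to 6.285), and BI arrays overlapped both. For the blood cell list BI arrays (7.53 to 7.67) lay above insulin arrays (7.42 to 7.49), and medium arrays overlapped both. The part of these shifts in the results below was not tested. Array medians lay between 5.46 and 5.50, and arrays correlated at 0.998 within groups and between 0.992 and 0.998 across groups.

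The start regions of the 3 factor genes are shown because their messages went different ways in the deposited values. There FOXO1 and FOXO3 were lower after BI and FOXO4 was not called. The windows hold 250 bases before and 50 bases after the annotated start, 5′ to 3′ on the strand of the gene, and come from RefSeq on GRCh38.p14. All 10 genes had an entry, with 19 windows in all. Capitals mark matches to GTAAACA or ATAAACA, the core letters that FOXO proteins are known to bind, or to CAAAACA, a form found in insulin response elements, each searched on both strands. The FOXO1 window is chr13:40666592-40666891 on the minus strand. The FOXO3 window shown, the second of its 4 and the only one with a match, is chr6:108560667-108560966 on the plus strand. The FOXO4 window is chrX:71095601-71095900 on the plus strand.
FOXO1: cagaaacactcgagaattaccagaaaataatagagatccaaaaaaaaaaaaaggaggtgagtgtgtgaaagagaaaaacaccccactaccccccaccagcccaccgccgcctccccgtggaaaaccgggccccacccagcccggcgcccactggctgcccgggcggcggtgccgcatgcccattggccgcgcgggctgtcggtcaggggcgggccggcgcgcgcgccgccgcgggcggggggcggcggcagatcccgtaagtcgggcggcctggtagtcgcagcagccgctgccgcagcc
FOXO3: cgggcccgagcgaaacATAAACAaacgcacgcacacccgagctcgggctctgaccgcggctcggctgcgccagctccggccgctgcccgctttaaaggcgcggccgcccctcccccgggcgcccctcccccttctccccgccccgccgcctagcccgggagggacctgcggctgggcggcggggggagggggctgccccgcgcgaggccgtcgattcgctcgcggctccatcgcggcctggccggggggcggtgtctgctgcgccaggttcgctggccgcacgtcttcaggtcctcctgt
FOXO4: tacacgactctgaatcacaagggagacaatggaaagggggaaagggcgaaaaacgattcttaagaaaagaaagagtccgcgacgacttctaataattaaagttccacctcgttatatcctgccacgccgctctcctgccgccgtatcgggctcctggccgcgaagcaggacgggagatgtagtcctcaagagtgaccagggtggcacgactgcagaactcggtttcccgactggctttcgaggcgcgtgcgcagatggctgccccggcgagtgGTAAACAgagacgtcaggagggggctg
The FOXO3 window held ATAAACA with its first base at position -234 from the start, and the FOXO4 window held GTAAACA at position 23. The letters searched for did not occur in the FOXO1 window, in the other FOXO3 windows or in any window of the other 7 genes. GTAAACA occurred in 3.423% of 35116 RefSeq windows of this length, ATAAACA in 4.237%, CAAAACA in 4.915%, and at least one of the 3 in 11.787%. Of the 19 windows of the 10 genes 2 held at least one of the 3. A match of so few letters is a description of the window and not a binding site.

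Most of the 9 measured genes differed between BI and medium arrays, in both directions. FOXO1, FOXO3, PDK4, PPARGC1A and BCL6 fell. SESN1 and CITED2 rose on the deposited scale but not when arrays were centred on spike-in controls (values below). FOXO4 and CCNG2 did not pass the test on the deposited scale. This count of 7 of 9 stands beside 50.9% of all 12240 genes tested that were called between BI and medium. The 2 that rose stand beside 25.7% of all genes that rose, and the 5 that fell beside 25.2% that fell. The test was limma over all 9 arrays, with p-values adjusted over all genes tested and a threshold of 0.05. Differences of at least 1.5-fold were found for 3 of the 9 (FOXO1, FOXO3 and SESN1), against 7.11% of all genes. The arrays of BI and medium did not overlap for 8 of the 9 genes, against 56.6% of all genes. The median size of a difference, regardless of sign, was 0.50 log2 for the 9 genes and 0.16 for all genes. With sign, the median difference was -0.16 for the 9 genes and 0.02 for all genes. In bulk samples such as these, fewer cells of a type and less of a message per cell cannot be told apart.

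**Figure D1:**
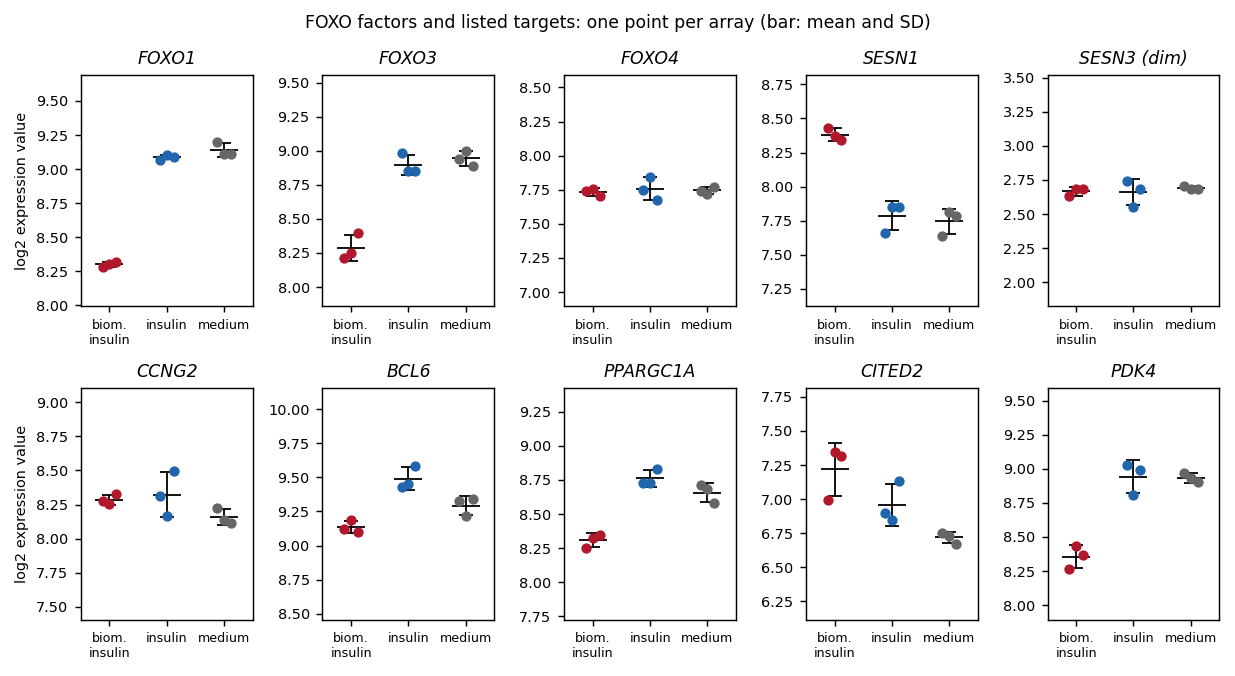
Log2 expression value (vertical axis, each gene on its own scale of equal span) of the 10 genes on every array, with biomineralized insulin, insulin and medium from left to right and the bar at the mean with its SD (n = 3). FOXO1, FOXO3, PPARGC1A and PDK4 of the BI arrays lie below all other arrays and SESN1 lies above them, while FOXO4 and the dim SESN3 overlap in all groups.

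FOXO1, the factor best known for insulin's control of glucose production, had the lowest adjusted p of the 9 genes. Its brightest probe set read 8.28, 8.31 and 8.32 log2 in BI arrays, 9.07, 9.10 and 9.09 in insulin arrays and 9.20, 9.11 and 9.11 in medium arrays. The BI arrays stood well below the other 6, while the insulin arrays lay just under the medium arrays. BI minus medium was -0.84 ± 0.04 log2 (SE; limma adjusted p = 1.07e-10), a level 0.559 times that of medium. BI minus insulin was -0.78 ± 0.04 (limma adjusted p = 3.47e-10), and insulin minus medium was -0.05 ± 0.04 (limma adjusted p = 0.601). By the size of its fall between BI and medium it was number 237 of 12240 genes. The other FOXO1 probe set above the filter read 6.42, 6.49 and 6.40 in BI arrays, 7.17, 7.03 and 6.92 in insulin arrays and 7.06, 7.08 and 7.18 in medium arrays. It too fell, by 0.67 log2 against medium, and the remaining 2 of the 4 FOXO1 probe sets were dim.

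FOXO3, a factor with overlapping roles in stress resistance, cell cycle arrest and cell death, fell as well. It read 8.22, 8.25 and 8.40 log2 in BI arrays, 8.98, 8.85 and 8.85 in insulin arrays and 8.94, 9.0 and 8.89 in medium arrays. Every BI array lay below every other array, and insulin overlapped medium. Between BI and medium the difference was -0.66 ± 0.06 (limma adjusted p = 5.26e-08), 0.635 times medium, and BI minus insulin was -0.61 ± 0.06 (limma adjusted p = 1.83e-07). Insulin minus medium was -0.05, with a 95% interval from -0.17 to 0.07. All 8 FOXO3 probe sets passed the filter, and 7 were called lower in BI than in medium. Of all probe sets 45.9% were called in that comparison, in either direction. One of the 7 averaged 4.72 in BI arrays, under the filter, and 5.00 in medium arrays, and the other 6 fell by 0.32 to 0.66 log2. The annotation gives 5 of the 8 to both FOXO3 and its near-identical copy FOXO3B, whose messages these probe sets cannot tell apart. The 3 given to FOXO3 alone all fell, by 0.66, 0.55 and 0.32 log2, and all 3 are of the type (_x_at) that the array maker marks as open to cross-hybridization. The 5 shared ones are of the type (_s_at) that matches several transcripts.

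FOXO4, the smaller relative that shares the AKT sites and the DNA motif, overlapped in all 3 groups. It read 7.74, 7.76 and 7.70 log2 in BI arrays, 7.75, 7.84 and 7.68 in insulin arrays and 7.74, 7.72 and 7.77 in medium arrays. BI minus medium was -0.01 with a 95% interval from -0.13 to 0.10 (limma adjusted p = 0.885), so a change as large as that of FOXO1 or FOXO3 lay outside the interval. BI minus insulin was -0.02 (interval -0.14 to 0.09) and insulin minus medium was 0.01 (interval -0.10 to 0.13). Of 7 FOXO4 probe sets 6 passed the filter, and limma called 0 of them in any comparison. Of all probe sets 45.9% were called between BI and medium, 38.6% between BI and insulin and 1.2% between insulin and medium. At an unadjusted p under 0.05 the count was 1 of 6 for BI against medium, 0 for BI against insulin and 1 for insulin against medium. Their BI minus medium differences ran from -0.01 to 0.17. All these values are on the deposited scale. With arrays centred on spike-in controls (described below) FOXO4 was -0.45 between BI and medium (limma adjusted p = 0.000529). The median of all genes was -0.42 on that scale. Centring shifts all genes of an array alike, so this p-value is not evidence about FOXO4 apart from that shift.

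SESN1 encodes sestrin 1, a stress-induced inhibitor of the growth kinase complex mTORC1. On the deposited scale SESN1 moved opposite to FOXO1 and FOXO3. It read 8.43, 8.37 and 8.34 log2 in BI arrays, 7.66, 7.85 and 7.85 in insulin arrays and 7.64, 7.81 and 7.78 in medium arrays. The BI arrays were the 3 highest, and insulin and medium overlapped. Against medium the BI difference was 0.64 ± 0.06 (limma adjusted p = 3.17e-07), 1.55 times medium, and BI minus insulin was 0.59 ± 0.06 (limma adjusted p = 9.02e-07). Insulin minus medium was 0.04 (95% interval -0.09 to 0.17). The dimmer SESN1 probe set read 6.57, 6.73 and 6.80 in BI arrays, 5.68, 5.77 and 5.86 in insulin arrays and 5.82, 5.65 and 5.45 in medium arrays, and its BI minus medium difference was 1.06. In the RefSeq table SESN1 and FOXO3 lie close together on chromosome 6, with 3 protein-coding genes between them. Of those 3, ARMC2 was below the filter and the other 2 were not analysed here, so the 2 genes measured above the filter moved in opposite directions on the deposited scale.

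SESN3, another sestrin known as a FOXO target, was dim on all arrays. Its brighter probe set read 2.63, 2.68 and 2.68 in BI arrays, 2.74, 2.55 and 2.68 in insulin arrays and 2.71, 2.68 and 2.68 in medium arrays. The other averaged 2.41 over the 9 arrays. The array's own background probes of low to middling GC content read from 2.46 to 2.83, so a difference in SESN3 could not be measured here.

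CCNG2 encodes cyclin G2, a cyclin that slows the cell cycle and is a standard readout of FOXO activity. It read 8.27, 8.25 and 8.33 log2 in BI arrays, 8.31, 8.16 and 8.50 in insulin arrays and 8.23, 8.14 and 8.11 in medium arrays. BI lay just above medium with no overlap, and insulin replicates 1 and 3 were higher than medium while replicate 2 lay within it. BI minus medium was 0.13 ± 0.07 (limma adjusted p = 0.134), and insulin minus medium was 0.17 ± 0.07 (limma adjusted p = 0.24). BI minus insulin was -0.04 (95% interval -0.18 to 0.11). The CCNG2 probe sets disagreed. The one with a mean of 5.03 read 5.18, 5.36 and 5.25 in BI arrays, 5.02, 5.10 and 5.20 in insulin arrays and 4.70, 4.57 and 4.89 in medium arrays. BI lay above medium without overlap, but the medium mean of 4.72 was under the brightness filter, so this probe set passed only through the treated groups and no size is given for its call. The one with a mean of 6.14 differed by -0.02.

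BCL6, a transcriptional repressor, was the one member of the 9 called between insulin and medium. It read 9.12, 9.19 and 9.10 log2 in BI arrays, 9.43, 9.45 and 9.59 in insulin arrays and 9.33, 9.22 and 9.34 in medium arrays. The 3 groups did not overlap, with insulin highest and BI lowest. Insulin minus medium was 0.20 ± 0.05 (limma adjusted p = 0.0496), BI minus medium was -0.16 ± 0.05 (limma adjusted p = 0.0157) and BI minus insulin was -0.35 ± 0.05 (limma adjusted p = 2.25e-05). The rise after insulin was close to the threshold, and limma kept the call in 5 of 22 alternatives and in 1 of 9 fits with an array left out, with adjusted p from 0.0153 to 1. With the replicate number as a block its adjusted p was 0.0668. The fall between BI and medium was lost in 7 of 22 alternatives, among them the fits without medium replicate 1 (adjusted p = 0.0531), medium replicate 3 (adjusted p = 0.0585), BI replicate 1 (adjusted p = 0.05) and BI replicate 3 (adjusted p = 0.0613). The fall between BI and insulin was called in all 22. Of the 5 BCL6 probe sets 2 were called lower in BI than in medium and 3 lower than in insulin. Of all probe sets 45.9% and 38.6% were called in these comparisons, in either direction.

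CITED2 encodes a coactivator partner that competes with hypoxia-inducible factor for CBP and p300, and it stood in the order BI, insulin, medium. It read 7.0, 7.34 and 7.32 log2 in BI arrays, 6.90, 6.85 and 7.14 in insulin arrays and 6.76, 6.73 and 6.67 in medium arrays. Both treated groups lay above medium, and BI replicate 1 fell within the insulin arrays. BI minus medium was 0.50 ± 0.09 (limma adjusted p = 0.000206), 1.41 times medium. Insulin minus medium was 0.24 ± 0.09 (limma adjusted p = 0.193), and BI minus insulin was 0.26 ± 0.09 (limma adjusted p = 0.0281). The last call was lost without insulin replicate 1 (adjusted p = 0.102), insulin replicate 2 (0.113), BI replicate 2 (0.139) or BI replicate 3 (0.119). It was also lost with no intensity trend (adjusted p = 0.0584), and the difference was -0.15 after spike-in centring (limma adjusted p = 0.25). Its other probe set was dim and read 3.39, 3.56 and 3.44 in BI arrays, 3.29, 3.12 and 3.23 in insulin arrays and 3.23, 3.12 and 3.17 in medium arrays.

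PPARGC1A encodes PGC-1alpha, the coactivator of mitochondrial and glucose-producing genes that is both a FOXO1 target and its partner. It read 8.25, 8.32 and 8.35 log2 in BI arrays, 8.73, 8.73 and 8.83 in insulin arrays and 8.71, 8.68 and 8.58 in medium arrays. BI was lowest, and insulin lay just above medium. Against medium the BI difference was -0.35 ± 0.05 (limma adjusted p = 2.2e-05), 0.784 times medium, and BI minus insulin was -0.46 ± 0.05 (limma adjusted p = 1.68e-06). Insulin minus medium was 0.10 (95% interval -0.003 to 0.21; limma adjusted p = 0.334). The second PPARGC1A probe set above the filter fell further, by 0.71 log2, reading 6.74, 6.63 and 6.82 in BI arrays, 7.50, 7.34 and 7.30 in insulin arrays and 7.42, 7.54 and 7.36 in medium arrays.

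PDK4 encodes a kinase that shuts off pyruvate dehydrogenase and so spares glucose in fasting. It read 8.27, 8.43 and 8.36 log2 in BI arrays, 9.03, 8.81 and 8.99 in insulin arrays and 8.97, 8.93 and 8.90 in medium arrays. Every BI array lay below every other array, and insulin replicates lay on both sides of medium. Between BI and medium the difference was -0.58 ± 0.06 (limma adjusted p = 4.37e-07), 0.670 times medium, and BI minus insulin was -0.59 ± 0.06 (limma adjusted p = 4.89e-07). Insulin minus medium was 0.01 (95% interval -0.12 to 0.13).

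**Figure D2:**
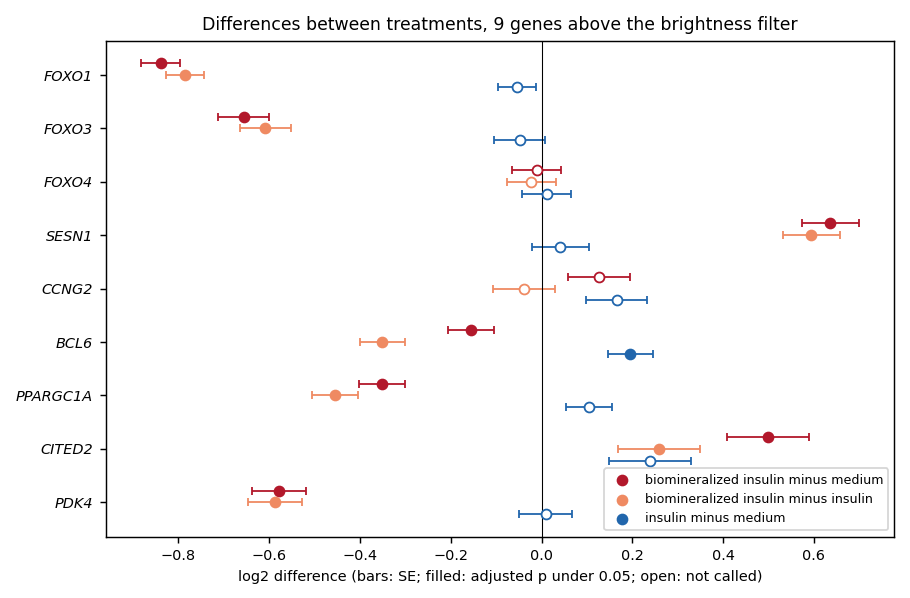
Log2 difference with its SE (horizontal axis) for the 9 genes above the brightness filter, for biomineralized insulin minus medium, biomineralized insulin minus insulin and insulin minus medium, with filled points at an adjusted p under 0.05. Insulin minus medium stays between -0.05 and 0.24 for the 9 genes, whereas BI minus medium runs from -0.84 (FOXO1) to 0.64 (SESN1) and BI minus insulin from -0.78 to 0.59 for the same 2 genes.

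Few of these genes passed the test between insulin and medium. Of the 9 genes 1 (BCL6) was called against medium, beside 2.45% of all genes, and 3 had an unadjusted p under 0.05, against 15.8%. The arrays of insulin and medium did not overlap for 4 of the 9 (FOXO1, BCL6, PPARGC1A and CITED2), against 18.3% of all genes. None of the 9 reached 1.5-fold, against 0.0163% of all genes. Over single probe sets, limma called 0 of the 30 above the filter, against 1.2% of all probe sets, and 6 had an unadjusted p under 0.05, against 14% of all probe sets. The log2 ratio of 3' to 5' actin probe sets, a sign of RNA integrity, was 3.19, 3.11 and 3.27 in insulin arrays. It was 2.96, 3.03 and 3.08 in medium arrays, and ran from 2.95 to 3.27 over the 9 arrays. The same ratio for GAPDH was 0.17, 0.16 and 0.16 in insulin arrays and 0.13, 0.20 and 0.15 in medium arrays, which overlapped. The part of RNA integrity in these values was not tested. Between BI and insulin, 7 of the 9 genes were called, beside 44.4% of all genes, with SESN1 and CITED2 higher (21.1% of all genes were) and the other 5 lower (23.3% were). A 1.5-fold difference was reached by FOXO1, FOXO3, PDK4 and SESN1, 4 of the 9, against 5.2% of all genes, and 6 of the 9 did not overlap, against 52.7%. The comparisons of BI with medium and with insulin share the BI arrays, so their likeness is not independent evidence.

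Over the probe sets, 18 of 30 were called between BI and medium, against 45.9% of all probe sets, with 4 higher and 14 lower. For 2 of the 18 (the CCNG2 and FOXO3 probe sets named above) 1 group mean was under the filter, which leaves 3 higher and 13 lower with both groups above it. Between BI and insulin 17 were called, against 38.6%, with 3 higher and 14 lower. Those called higher against medium were both SESN1 probe sets and 1 each of CCNG2 and CITED2. Those called lower belonged to FOXO3 (7), FOXO1 (2), BCL6 (2), PPARGC1A (2) and PDK4 (1). Probe sets of one gene share their transcript and are not replicates of a condition.

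**Figure D3:**
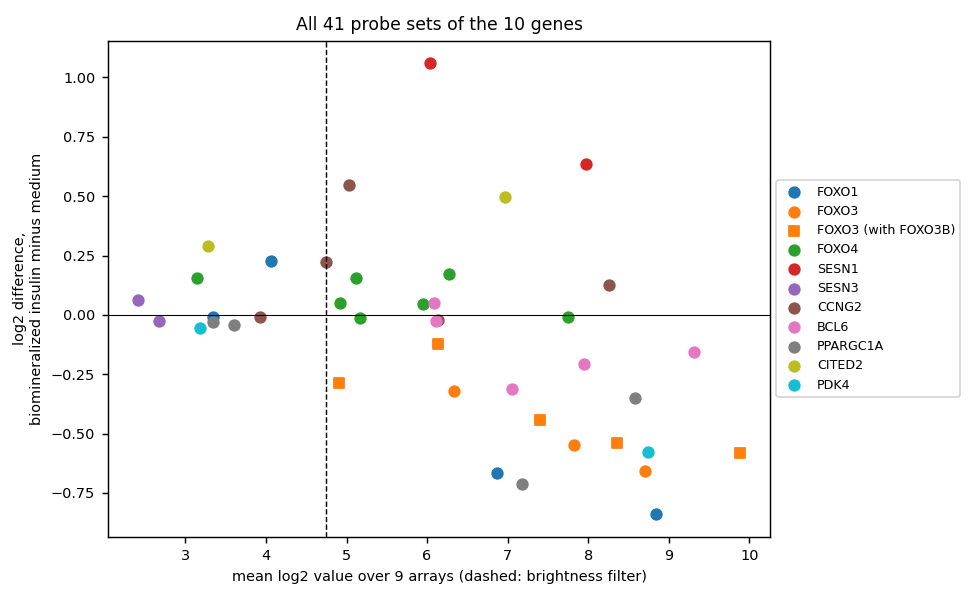
Mean log2 value over the 9 arrays (horizontal axis) against the log2 difference of biomineralized insulin minus medium (vertical axis) for all 41 probe sets, coloured by gene, with squares for FOXO3 probe sets shared with FOXO3B and the brightness filter of 4.74 as a dashed line. The 2 SESN1 probe sets lie at 0.64 and 1.06, the 8 FOXO3 probe sets all lie below 0, and most dim probe sets lie near 0.

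The size and, for some genes, the direction of the BI differences depend on how the arrays are scaled. Spike-in RNAs with a poly-A tail, which are added to each sample before labelling, read 7.68, 8.0 and 7.73 log2 in BI arrays, 7.42, 7.32 and 7.43 in insulin arrays and 7.31, 7.33 and 7.46 in medium arrays (mean of 12 probe sets). The spike-ins were thus 0.44 log2 higher in BI than in medium, and those added just before hybridization differed by -0.005 (9 probe sets). When each array was centred on its poly-A spike-ins, the median of all genes shifted to -0.42 between BI and medium. On that scale 197 genes were higher and 9347 lower in BI than in medium, against 3140 higher and 3090 lower on the deposited scale. For BI against insulin the split was 124 higher and 9483 lower, against 2579 and 2854. For insulin against medium it was 0 higher and 5 lower, against 153 and 147. There the median of all genes moved little, to -0.02 on the spike-in scale against 0.01 on the deposited scale, while the median SE was 0.122 against 0.0592. BCL6 was 0.17 ± 0.12 on the spike-in scale against 0.20 ± 0.05. FOXO1, FOXO3, PDK4, PPARGC1A and BCL6 were lower in BI than in medium on both scales, with spike-centred differences of -1.28, -1.10, -1.02, -0.79 and -0.60. SESN1 and CITED2, called higher on the deposited scale, had 0.19 (limma adjusted p = 0.129) and 0.06 (limma adjusted p = 0.679) on the spike-in scale. FOXO4 was -0.45 (limma adjusted p = 0.000529) and CCNG2 was -0.31 (limma adjusted p = 0.013) on that scale. Centring gives all genes of an array the same shift. The p-values and counts on this scale therefore share the error of that shift and are not separate evidence for each gene. The spike-in mean had an SD of 0.17 over the 3 BI arrays and 0.08 over the 3 medium arrays. The order of the genes is the same on both scales, and against the median of all genes FOXO4 stays near 0 on each.

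**Figure D4:**
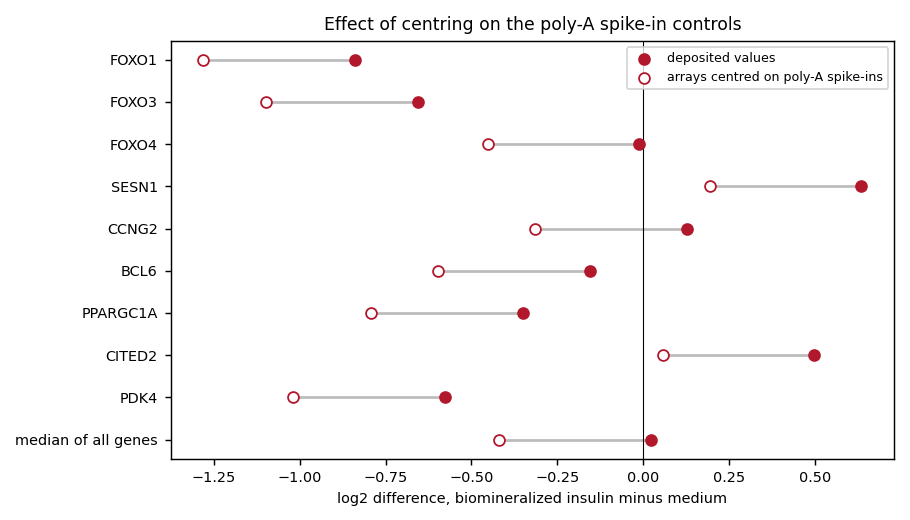
Log2 difference of biomineralized insulin minus medium (horizontal axis) for the 9 genes and the median of all genes, with filled points for the deposited values and open points after centring each array on the poly-A spike-ins. All points move down by the same 0.44, so that SESN1 and CITED2 come to 0.19 and 0.06 and the median of all genes to -0.42.

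Relatives of the 10 genes, genes that act on FOXO proteins and other FOXO targets were also read. Between BI and medium 25.7% of all genes rose and 25.2% fell on the deposited scale, and 1.61% were higher and 76.4% lower on the spike-in scale, and each list count below stands beside these shares. Of 11 listed relatives, 8 were tested, 2 (BCL6B and CITED1) were dim and FOXO6 was not analysed here. Between BI and medium 3 rose and 3 fell on the deposited scale (75% called, against 50.9% of all genes), while on the spike-in scale 0 were higher and 5 lower. SESN2, the stress-response sestrin, fell by 2.49 ± 0.06 log2 (limma adjusted p = 6.27e-15), the opposite of SESN1 on the deposited scale. CITED4 fell by 0.63 ± 0.05 (limma adjusted p = 2.45e-08), the opposite of CITED2 on the deposited scale. On the spike-in scale SESN1 and CITED2 were not called, at 0.19 and 0.06. CCNG1, the other cyclin G, rose by 0.40 ± 0.09 (limma adjusted p = 0.00183), with -0.05 on the spike-in scale. PPRC1, a relative of PGC-1alpha, rose by 0.22 ± 0.05 (limma adjusted p = 0.00112), with -0.23 on the spike-in scale, and PPARGC1B differed by -0.01. Among the PDK4 relatives PDK3 rose by 0.22 ± 0.07 (limma adjusted p = 0.0111), with -0.22 on the spike-in scale, and PDK1 differed by -0.07. PDK2 was called lower at -0.19 ± 0.07 (limma adjusted p = 0.042), but 1 of its 3 probe sets had that sign. Between insulin and medium limma called 0 of the 8, against 2.45% of all genes. An unadjusted p under 0.05 was found for 1 of the 8, against 15.8%.

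The genes that act on FOXO proteins moved in both directions on the deposited scale. Of 33 regulators tested (3 of the 36 listed were not analysed here) 12 rose and 12 fell between BI and medium (72.7% called, against 50.9%), with a median of 0.06, and 2 were higher and 25 lower on the spike-in scale. SKP2, a ubiquitin ligase part that marks FOXO1 for breakdown, rose by 1.14 ± 0.07 (limma adjusted p = 1.33e-09). SGK1, a kinase that phosphorylates FOXO3 at AKT-type sites, rose by 1.04 ± 0.03 (limma adjusted p = 1.51e-13). Both stayed higher on the spike-in scale, at 0.70 and 0.60. KAT2B, an acetyltransferase, fell by 0.70 ± 0.05, and CSNK1A1, the casein kinase that phosphorylates FOXO1 after AKT, fell by 0.56 ± 0.03. XPO1, the exporter that carries FOXO out of the nucleus, rose by 0.31 ± 0.05 and had -0.13 on the spike-in scale. Between insulin and medium 2 of the 33 were called (6.06%, against 2.45% of all genes). They were SGK1 (0.13 ± 0.03, limma adjusted p = 0.0419) and XPO1 (0.18 ± 0.05, limma adjusted p = 0.0498). Both calls were lost when single arrays were left out, with adjusted p up to 0.18 for SGK1 and 0.248 for XPO1.

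Of the other listed FOXO targets GADD45A fell furthest. Of 15 cell cycle and DNA repair targets tested 6 rose and 6 fell between BI and medium (80% called, against 50.9%), with a median of -0.09, against 0 higher and 10 lower on the spike-in scale. GADD45A, a DNA damage response gene, fell by 2.35 ± 0.04 (limma adjusted p = 3.62e-16), and its relative GADD45B fell by 0.91 ± 0.04. KLF4, a transcription factor that restrains growth, fell by 1.72 ± 0.07, and BTG1, an antiproliferative gene, fell by 0.71 ± 0.04. GADD45A also fell between insulin and medium, by 0.31 ± 0.04 (limma adjusted p = 0.00231). ID1, an inhibitor of differentiation factors, rose after insulin by 0.19 ± 0.03 (limma adjusted p = 0.0026) and fell after BI by 0.11 ± 0.03 (limma adjusted p = 0.0031), both against medium.

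Of 7 cell death and mitophagy targets tested 3 rose and 3 fell between BI and medium (85.7% called, against 50.9%), with a median of 0.12, against 0 higher and 5 lower on the spike-in scale. PMAIP1, which encodes the death factor NOXA, fell by 2.04 ± 0.05 (limma adjusted p = 3.35e-14), and PINK1, a kinase of mitophagy, fell by 0.40 ± 0.05. TRADD, a death receptor adaptor, rose by 0.61 ± 0.06, with 0.17 on the spike-in scale, and BNIP3, a mitophagy receptor, rose by 0.29 ± 0.03, with -0.15 on it. Of 5 antioxidant targets 2 fell and 0 rose, namely SELENOP, a selenium carrier made by liver, by 0.56 ± 0.06 and CAT, catalase, by 0.30 ± 0.05. These 2 of 5 are 40%, against 50.9% of all genes called. On the spike-in scale all 5 were lower, as 76.4% of all genes were.

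Of 12 metabolic and insulin signalling targets tested 4 rose and 6 fell between BI and medium (83.3% called, against 50.9%), with a median of -0.01, against 0 higher and 9 lower on the spike-in scale. TXNIP, which lowers glucose uptake, fell by 1.77 ± 0.03 (limma adjusted p = 2.13e-16), and EIF4EBP1, a brake on translation, fell by 0.99 ± 0.03 (limma adjusted p = 5.06e-13). Both also fell between insulin and medium, by 0.13 ± 0.03 (limma adjusted p = 0.0417) and 0.21 ± 0.03 (limma adjusted p = 0.00417). The TXNIP call was lost when single arrays were left out, with adjusted p up to 0.208, and with the replicate block. IRS2, the docking protein of the insulin receptor that FOXO1 is known to switch on, rose by 0.59 ± 0.05, with 0.15 on the spike-in scale. ADIPOR1, an adiponectin receptor, rose by 0.32 ± 0.04, with -0.12 on it. G6PC1 and PCK1, enzymes of glucose production, and IGFBP1, a binding protein of insulin-like growth factors, were dim and are named here after their values were seen. G6PC1 averaged 4.68 in BI arrays, 4.62 in insulin arrays and 4.71 in medium arrays, and PCK1 averaged 4.05, 4.19 and 4.18 in the same order. IGFBP1, the usual readout of FOXO1 in hepatoma cells, averaged 5.06 ± 0.28 in BI arrays, 4.27 ± 0.26 in insulin arrays and 4.38 ± 0.27 in medium arrays (SD, n = 3 each), with BI above the filter and both other groups under it.

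Of 13 autophagy and protein breakdown targets tested 2 rose and 7 fell between BI and medium (69.2% called, against 50.9%), with a median of -0.10, against 0 higher and 12 lower on the spike-in scale. The kinase gene ULK1, which starts autophagy, fell by 0.89 ± 0.06, and the genes of the membrane proteins GABARAPL1 and MAP1LC3B fell by 0.83 ± 0.05 and 0.64 ± 0.04. ATG12, a conjugation factor, fell by 0.74 ± 0.07 on the probe set that represents it, while a probe set of another type gave 0.17. ATG14 was called between insulin and medium, at 0.22 ± 0.05 (limma adjusted p = 0.0339), and lost the call in fits that left out single arrays, with adjusted p up to 0.187.

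**Figure D5:**
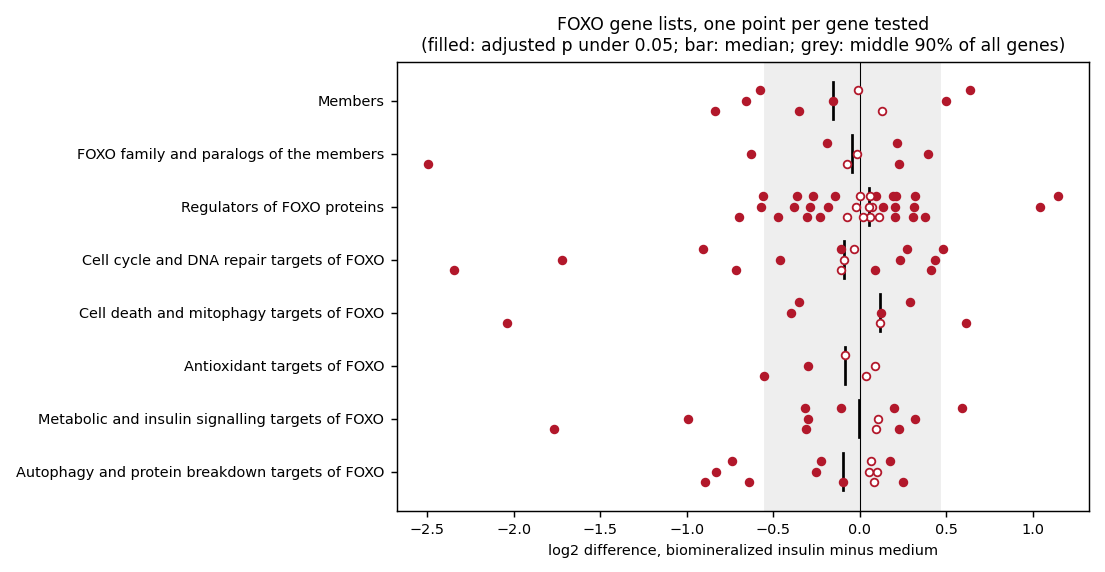
Log2 difference of biomineralized insulin minus medium (horizontal axis) for every tested gene of the 10 members and of each list of relatives, regulators and targets, with filled points at an adjusted p under 0.05, a bar at each list's median and a grey band for the middle 90% of all genes (-0.55 to 0.46). The list medians lie between -0.16 and 0.12, and SESN2, GADD45A, PMAIP1, TXNIP and KLF4 lie far to the left of the band.

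Described over the 9 arrays, the genes whose pattern was most like that of FOXO1 were KIF21B, ECM2, INHBE, CAMTA2 and TXNIP, each with a Pearson correlation of 0.998. Of 12239 other genes 377 had a correlation of at least 0.98. The gap between BI and the other arrays carries these values, since within groups the same correlations were from 0.424 to 0.598. INHBE, a hepatic activin subunit, averaged 4.32 log2 in BI arrays, 9.36 in insulin arrays and 9.60 in medium arrays, and its BI value lay below the brightness filter. KIF21B averaged 4.87 in BI arrays, 7.03 in insulin arrays and 7.18 in medium arrays.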

How the data were processed

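The deposited table holds log2 expression values per probe set that the authors made from scanned arrays of biotin-labelled cRNA, per the labels' protocols. The log2 scale was read from their range of 2.02 to 14.3. The method by which probes were summarised and arrays normalized was not given in the sources used here. Raw scanner data were not used. Of 49395 rows, 102 were control features, 44988 probe sets had 1 symbol, 1832 had several and 2473 had none listed. Symbols were taken from the RefSeq table of GRCh38.p14 through Entrez identifiers. For 44961 probe sets the identifier was found there, whether or not the symbol changed, and 27 kept the platform symbol. No source names the genome build of the array, so coordinates are given only for RefSeq promoter windows.

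Probe sets in the dimmest 40 percent (mean under 4.74 log2) were left out, and a gene was represented by its brightest probe set with 1 gene, which left 12240 genes. A single linear model was fitted to all 9 arrays with limma 3.58.1 in R 4.3.3 (6 residual degrees of freedom, eBayes with its trend on intensity), from which 3 contrasts were taken, and p-values were adjusted by Benjamini-Hochberg over all genes tested (threshold 0.05). Probe sets were tested in the same way (29576). The code was tested on simulated data. The number of arrays limits the precision.

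The members, the gene lists and the tests were chosen with earlier results of these data known. Named are all members, their relatives, in each other list up to 4 genes with the lowest p among those called between BI and medium and any called between insulin and medium, and the 5 genes most correlated with FOXO1. Groups and replicate numbers come from the sample titles. Deviations from the group means correlated over 0.1 in 1 of 9 same-numbered pairs (-0.23 to 0.17). Medium replicate 3 and insulin replicate 2, of different numbers, correlated at 0.34. With 3 arrays per group these values cannot show whether the numbers pair the arrays, and the main fit did not use them as pairs. The alternatives were other scalings, filters, probe set choices, variance settings, thresholds, a replicate block and leaving out each array.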

Additional observations from a re-analysis of the deposited data

Results flagged for a closer look

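The poly-A spike-in controls, which the comparisons of genes do not use, were higher in the BI arrays than in the medium arrays by 0.44 log2, and higher than in the insulin arrays by 0.41. They drew attention because they are a signal outside the main measurement that stands above its level in the medium arrays. BI replicate 2, at 8.0, was the highest array. Centring on these controls left FOXO1, FOXO3, PDK4, PPARGC1A and BCL6 lower in BI than in medium, and ended the calls of SESN1 and CITED2.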

How the results depend on the processing

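Of the 9 genes, FOXO1, PPARGC1A and PDK4 kept their BI calls in 22 of 22 alternatives against medium and against insulin, FOXO3 in 21 of 21 (it has no value without _x_at and _s_at probe sets) and SESN1 in 21 of 22, the exception being poly-A spike-in centring. The count of genes called between insulin and medium (300) was 152 when the third group was left out of the fit, 197 after median centring, 5 after spike-in centring, 177 where the most variable probe set stood for a gene, 199 without _x_at and _s_at probe sets, 37 with no intensity trend, 604 with array weights, 66 at an adjusted p under 0.01 and 2 at 1.5-fold. It ran from 57 (without insulin replicate 3) to 425 (without insulin replicate 2) when 1 array was left out, and was 62, 145 and 187 in the fits that lacked medium replicate 2, insulin replicate 1 or medium replicate 1. The member count between insulin and medium (1) was 0 with the replicate block, the 6 arrays alone, median or spike-in centring, no brightness filter, the mean of a gene's probe sets, the probe set of largest variance, no _x_at and _s_at probe sets, no intensity trend, an adjusted p under 0.01 and 1.5-fold, and it ran from 0 to 2 when 1 array was left out. Between BI and medium 6230 genes became 9544 with spike-in centring and 870 at 1.5-fold, and ran from 5504 to 6291 without single arrays, while 7 members became 3 at 1.5-fold and ran from 6 to 7. Between BI and insulin 5433 genes became 9607 and 636 in the same settings and ran from 4855 to 5556, while 7 members became 4 at 1.5-fold and ran from 6 to 7. The replicate block gave 226 genes for insulin against medium, 6082 for BI against medium and 5302 for BI against insulin, with 0, 7 and 7 members. It ended the insulin calls of BCL6 (limma adjusted p = 0.0668) and of XPO1 and TXNIP, which are not members. No other member call was ended by it. The labels give same-numbered arrays only a number in common. The insulin calls of BCL6, SGK1, XPO1, GADD45A, ID1, TXNIP, EIF4EBP1 and ATG14 were all lost after spike-in centring, where the differences were about as large (GADD45A -0.34 against -0.31, EIF4EBP1 -0.24 against -0.21, ATG14 0.19 against 0.22) and the median SE over all genes was 0.122 against 0.0592.

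Among genes called on at least one scale, spike-in centring turned the sign between BI and medium for CCNG2 (-0.31), CCNG1 (-0.046), PPRC1 (-0.23), PDK3 (-0.22), XPO1 (-0.13), BNIP3 (-0.15), ADIPOR1 (-0.12) and ATG14 (-0.36), and between BI and insulin for CITED2 (-0.15), PPRC1 (-0.17), PDK3 (-0.21), XPO1 (-0.28), BNIP3 (-0.24) and ADIPOR1 (-0.14). Between BI and insulin CCNG1 (-0.19) and PPARGC1B (-0.27), called on neither scale, turned sign too. This follows from the shift of all genes by the spike-in difference. PDK2 between BI and medium was 0.014 with the mean of its probe sets. Without _x_at and _s_at probe sets ATG12 was 0.17 between BI and medium and 0.10 between BI and insulin, XPO1 was -0.015 between insulin and medium, and BNIP3 was -0.064 between BI and insulin, as it was with the probe set of largest variance. CCNG2 between BI and medium was called at 0.16 with quantile normalization. It was also called with the mean of its probe sets and with the probe set of largest variance. Both of these use the probe set with a mean of 5.03, which passed the filter only through the treated groups, so no size is given. Apart from settings that test fewer arrays or another probe set, the cause was not tested. Signal over background limits SESN3 and the dim targets.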
